A study of Homo sapiens with 12 samples.

Results

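Transcript levels of the m6A machinery were followed for 4 h after transcription was stopped in A673, an Ewing sarcoma cell line. The genes examined are 10 taken from the count table by their symbols: the writers METTL3, METTL14, WTAP and RBM15, the readers YTHDF1, YTHDF2, YTHDF3 and YTHDC1, and the erasers ALKBH5 and FTO. They are 10 of the 26334 gene symbols in the count table and 10 of the 12032 genes that had enough counts to be tested. They were listed for their roles and not by a threshold on a measured value, though with earlier results of these data known. The cells, labelled shA673-1c, were grown with blasticidin and zeocin and received 5 µM actinomycin D for 0, 1, 2 or 4 h, with 3 libraries of poly(A) RNA per time point (12 in all). The labels call the 3 libraries of a time point biological replicates. The 0 h libraries were the only controls, and no untreated cells were collected at the later times. The sample titles of all 12 libraries carry the tag CTL. The labels do not say which short hairpin RNA the line carries or whether it was induced, and all 12 libraries share this background.

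N6-methyladenosine (m6A) is the most common internal modification of mRNA. It is placed by a nuclear complex in which METTL3 is the catalytic subunit, METTL14 holds the RNA and WTAP and RBM15 bring the complex to its targets. Proteins with a YTH domain bind the mark: those of the YTHDF group act in the cytoplasm, where they are best known for speeding mRNA decay, and YTHDC1 acts in the nucleus. ALKBH5 and FTO are demethylases that can remove it. Actinomycin D prevents RNA polymerases from moving along DNA, so that the level of an mRNA afterwards depends on how fast the existing copies are degraded.

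Library totals ranged from 9147018 to 11194705 counts, and the members had between 116 and 1470 counts in single libraries. MYC, the transcript of a short-lived transcription factor, was at 6.14 ± 1.65% of its 0 h level after 4 h (mean ± SD of the ratios within a replicate number, n = 3), and JUN, another short-lived factor transcript, at 11.1 ± 1.37%. Of 6 transcripts that mark Ewing sarcoma, FLI1, NKX2-2, NR0B1, STEAP1 and PRKCB had 63 to 1623 counts in each 0 h library, whereas CD99 was listed at 0 counts in all 12. That listing does not show that CD99 is silent, since how reads matching more than 1 place were counted is not given in the sources used here. The summed marker level was 285 to 341 counts per 1000000 counts of a library at 0 h and 196 to 259 at 4 h, without TMM factors. CPM elsewhere are counts per 1000000 scaled with TMM factors, unless another scaling is named. Markers of leukocytes, endothelium, epithelium and hepatocytes (PTPRC, PECAM1, VWF, EPCAM and ALB) had at most 6 counts in any library. Their sum lay between 0.279 and 1.39 per 1000000 counts, also without TMM factors. The libraries hold no added RNA standard. Values are therefore levels relative to the other mRNA of the same library, and fewer living cells cannot be told apart from less RNA per cell.

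Before the drug, the members differed widely in level. On the scale of CPM per kilobase of the canonical transcript, YTHDF2 was highest at 0 h (49.0 ± 2.42, mean ± SD, n = 3), and METTL3 (40.8 ± 3.11) and WTAP (39.8 ± 3.28) came next with overlapping values. ALKBH5 stood at 32.4 ± 2.56 CPM per kilobase. YTHDF3 (25.7 ± 0.842) and YTHDF1 (25.3 ± 1.54) also overlapped on this scale, as did YTHDC1 (11.5 ± 1.08) and RBM15 (10.6 ± 1.72). FTO (5.55 ± 0.298) and METTL14 (4.70 ± 0.562) were the lowest, with no shared values between them. In CPM not divided by length, FTO (64.2) stood above RBM15 (35.7) and METTL14 (31.2) at 0 h. The catalytic subunit METTL3 and its partner METTL14, which form a dimer as proteins, were thus among the higher and the lowest of the 10 transcripts per unit length. After 4 h the order had changed: METTL3 was first at 41.5 ± 3.30 CPM per kilobase and YTHDF2 had dropped to rank 5 at 8.61 ± 0.859. The scale rests on 1 transcript per gene, and with the longest annotated transcript in place of the canonical one METTL3 would be at 32.1, WTAP at 22.9 and RBM15 at 8.65 CPM per kilobase at 0 h.

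After actinomycin D, 9 of the 10 transcripts fell and none rose (adjusted p below 0.05, edgeR). A straight line in time was fitted to each gene, and its slope is given in log2 change per hour. Of all tested genes, 32.1% had a called negative slope and 30.7% a called positive slope. The median slope of the members was -0.26 log2 per hour, beside 0.0093 over all tested genes. The members spread over a wide range, from -0.65 for YTHDF2, with 2.04% of the tested genes lower, to -0.00013 for METTL3, with 47.5% lower. By function, the median slope was -0.42 for the 4 readers, -0.26 for the 4 writers and -0.11 for the 2 erasers. The slopes of the readers (-0.65 to -0.25) and of the writers (-0.35 to -0.00013) overlapped. Those of the erasers (-0.14 to -0.09) lay within the range of the writers, and no test compared the functions. Half-lives below are -1 divided by the slope, and they hold for the TMM scaling. Those of the whole course were all shorter with scaling to library totals, and shorter again with scaling to GAPDH and ACTB.

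**Figure D1:**
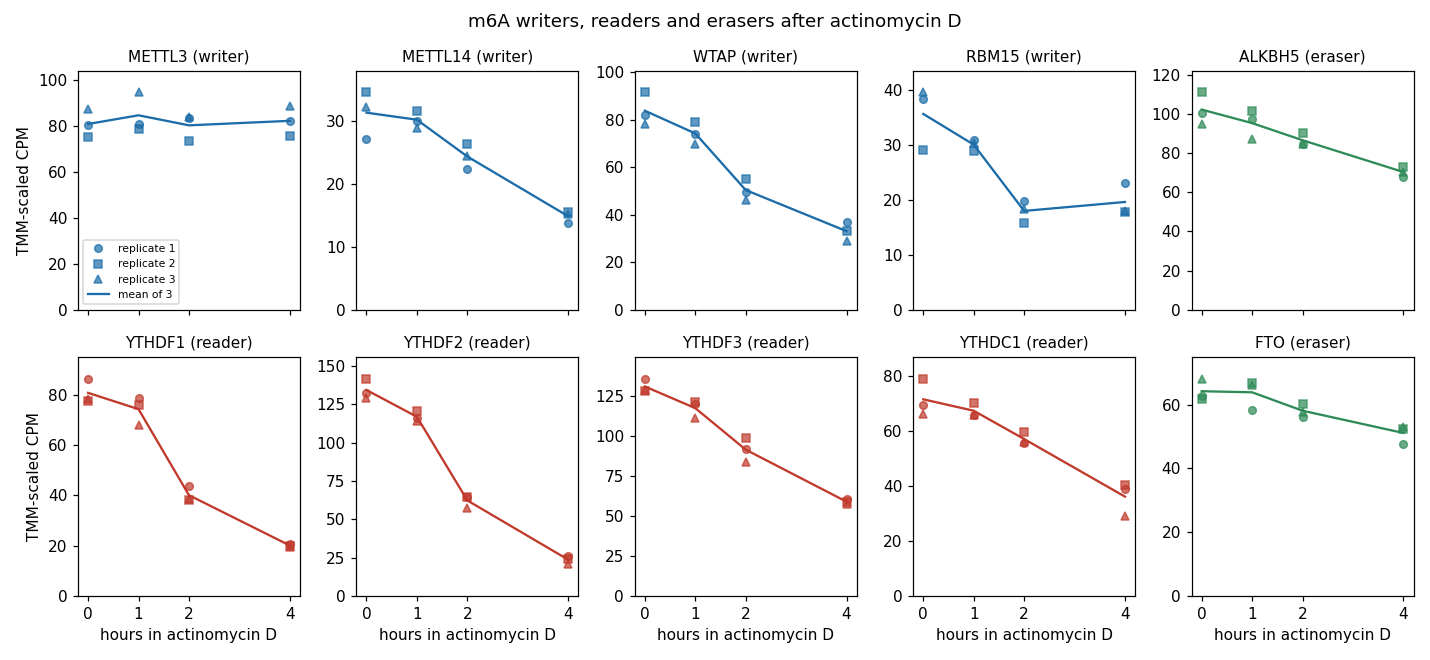
Level of each member in CPM (TMM-scaled; linear axis from 0, a separate scale for each gene) against hours of 5 µM actinomycin D. Points are the 12 libraries, with a marker for each replicate number, and the line joins the means of the 3 libraries of a time point. METTL3 runs flat between 73.3 and 94.6 CPM, whereas YTHDF2 drops from 129 to 142 CPM at 0 h to between 21.1 and 25.7 CPM at 4 h.

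Among the writers, METTL3 stood apart. It had 80.3, 75.05 and 87.3 CPM at 0 h in replicates 1, 2 and 3, and 80.9, 78.6 and 94.6 CPM at 1 h. It had 83.5, 73.3 and 84.1 CPM at 2 h and 82.1, 75.8 and 88.9 CPM at 4 h. The 4 time points overlapped, and replicate 2 was the lowest at each of them. The 4 h level was 101.7 ± 0.672% of the 0 h level of the same replicate, and the slope was -0.00013 ± 0.021 (SE) log2 per hour (adjusted p = 0.996, edgeR). Under scaling to GAPDH and ACTB, 2 transcripts often taken as stable, the slope of METTL3 became -0.14 and passed the threshold (adjusted p = 0.000465, edgeR). The canonical METTL3 transcript overlaps exons of TOX4, a gene on the opposite strand, over 345 bases. TOX4 had a mean of 836 counts and a slope of -0.056 log2 per hour (adjusted p = 0.0202, edgeR), and the strand setting of the counting step is not given in the sources used here.

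METTL14, the RNA-binding partner of METTL3, had 27.1, 34.4 and 32.2 CPM at 0 h and 30.0, 31.5 and 28.9 CPM at 1 h. It then had 22.25, 26.2 and 24.4 CPM at 2 h and 13.7, 15.5 and 15.2 CPM at 4 h. The values of 0 and 1 h overlapped, those of 2 h lay below them and those of 4 h lower still. METTL14 thus fell to 47.7 ± 2.84% of its 0 h level, with a slope of -0.28 ± 0.031 (SE) log2 per hour (adjusted p = 8.43e-07, edgeR) and a half-life of 3.60 h (3.42 to 3.73 h in single replicates). Over 0 to 2 h alone the half-life was 5.92 h.

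WTAP, the regulatory subunit that places the METTL3 and METTL14 dimer in nuclear speckles, was at 81.8, 91.45 and 78.1 CPM at 0 h and at 73.9, 78.9 and 69.9 CPM at 1 h. By 2 h it was at 49.7, 55.2 and 46.3 CPM and by 4 h at 37.0, 33.1 and 29.1 CPM. Only the 0 and 1 h values overlapped. WTAP fell to 39.6 ± 4.90% of its 0 h level and had the lowest slope of the 4 writers, -0.35 ± 0.027 (SE) log2 per hour (adjusted p = 1.61e-08, edgeR). This corresponds to 2.85 h for the half-life (2.64 to 3.29 h).

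RBM15, an adaptor that links the writer complex to its RNA targets, took another course. Its levels were 38.5, 29.0 and 39.6 CPM at 0 h, with replicate 2 the low value, and 31.0, 28.9 and 30.4 CPM at 1 h. At 2 h they were 19.9, 15.8 and 18.4 CPM, below all earlier values, and at 4 h 23.1, 17.8 and 18.0 CPM, which overlapped those of 2 h. RBM15 was thus at 50.8 ± 4.06% of its 0 h level after 2 h and at 55.7 ± 8.78% after 4 h. Its slope was -0.23 ± 0.048 (SE) log2 per hour (adjusted p = 0.000466, edgeR), the widest standard error of the 10. The slope was -0.47 over 0 to 2 h, so that the half-life of 4.26 h from the whole course (3.34 to 5.13 h in single replicates) describes no single interval.

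The 4 readers all fell. YTHDF2, the best known decay factor of the group, which recruits the CCR4-NOT deadenylase to methylated mRNA, had the lowest slope of the 10 members. Its levels were 132, 142 and 129 CPM at 0 h and 116, 120.5 and 114 CPM at 1 h. They were 64.8, 64.6 and 57.5 CPM at 2 h and 25.7, 24.1 and 21.1 CPM at 4 h. No value of one time point reached those of the next. YTHDF2 was at 17.6 ± 1.65% of its 0 h level after 4 h, with a slope of -0.65 ± 0.038 (SE) log2 per hour (adjusted p = 1.62e-09, edgeR) and a half-life of 1.53 h (1.46 to 1.63 h).

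YTHDF1, the paralog first linked to translation of methylated mRNA, had 86.5, 77.6 and 78.5 CPM at 0 h and 78.9, 76.2 and 68.0 CPM at 1 h. It had 43.6, 38.3 and 38.4 CPM at 2 h and 20.9, 19.8 and 19.6 CPM at 4 h. The 0 and 1 h values overlapped and the later time points were separate. YTHDF1 was at 24.9 ± 0.691% of its 0 h level after 4 h, with a slope of -0.53 ± 0.037 (SE) log2 per hour (adjusted p = 6.29e-09, edgeR). The half-lives of the 3 replicates, 1.85 to 1.90 h, were close to each other.

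YTHDF3, the remaining cytoplasmic paralog, which acts together with the others, was at 136, 128 and 129 CPM at 0 h and at 120, 121 and 111 CPM at 1 h. It was at 91.8, 98.4 and 83.9 CPM at 2 h and at 60.3, 58.9 and 57.4 CPM at 4 h. Its 4 time points were separate, but the fall was slower than that of its paralogs, to 44.98 ± 0.839% of the 0 h level. The slope was -0.30 ± 0.018 (SE) log2 per hour (adjusted p = 2.76e-09, edgeR), and the half-life was 3.37 h (3.32 to 3.44 h).

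YTHDC1, the nuclear reader, which acts in splicing and export, had 69.3, 79.1 and 66.3 CPM at 0 h and 66.0, 70.2 and 66.0 CPM at 1 h. It had 55.5, 59.75 and 56.0 CPM at 2 h and 39.0, 40.3 and 29.1 CPM at 4 h. The 0 and 1 h values overlapped, the later time points were lower and separate, and replicate 3 was the low value at 4 h. YTHDC1 fell to 50.4 ± 6.14% of its 0 h level, with a slope of -0.25 ± 0.028 (SE) log2 per hour (adjusted p = 9.8e-07, edgeR) and a half-life of 3.97 h (3.30 to 4.65 h). Without the 4 h libraries the half-life was 6.62 h.

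Both erasers fell less. ALKBH5, a nuclear demethylase of m6A in mRNA, was at 100.7, 111 and 95.1 CPM at 0 h and at 97.5, 101.5 and 87.1 CPM at 1 h. It was at 84.8, 90.2 and 84.8 CPM at 2 h, overlapping 1 h but below 0 h, and at 67.9, 72.7 and 70.5 CPM at 4 h, below all earlier values. It was at 69.0 ± 4.53% of its 0 h level after 4 h, with a slope of -0.14 ± 0.017 (SE) log2 per hour (adjusted p = 3.94e-06, edgeR) and a half-life of 7.33 h (6.47 to 9.55 h).

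FTO, the first RNA demethylase to be described, which also acts on the cap-adjacent form of the mark, had 62.5, 61.8 and 68.1 CPM at 0 h and 58.4, 66.9 and 66.2 CPM at 1 h. It had 56.1, 60.3 and 57.8 CPM at 2 h and 47.8, 52.5 and 53.0 CPM at 4 h. The values of 1 h overlapped those of 0 and 2 h, and those of 4 h were the lowest. FTO was at 79.7 ± 4.55% of its 0 h level after 4 h. Its slope was -0.09 ± 0.018 (SE) log2 per hour (adjusted p = 0.00047, edgeR), and its half-life was 11.4 h (10.4 to 13.9 h) with TMM, 7.87 h with library totals and 4.43 h with GAPDH and ACTB scaling. Without the 4 h libraries its slope was -0.061 and did not pass the threshold (adjusted p = 0.25, edgeR).

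**Figure D2:**
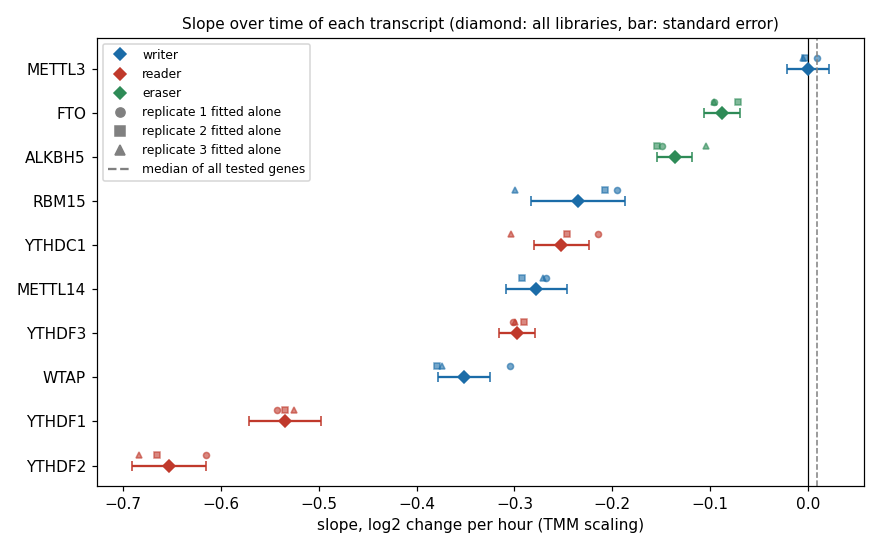
Slope of each member in log2 change per hour (TMM scaling), ordered from lowest to highest. Diamonds, colored by role, are fits to all 12 libraries with their standard errors as bars, the other markers are the 3 replicates fitted alone, and the dashed line is the median of all tested genes (0.0093). YTHDF2 and YTHDF1 lie lowest, METTL3 lies at 0 and the others lie between -0.35 and -0.09.

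The members called lower differed between the intervals, of which the last, from 2 to 4 h, was the longest. From 0 to 1 h no member was called by edgeR, with 2.24% of the tested genes called lower and 0.349% higher in that interval. YTHDF2 (-0.20 log2, adjusted p = 0.176) and YTHDF3 (-0.16 log2, adjusted p = 0.261) were the 2 members with an unadjusted p below 0.05. With the replicate number as a block, 4 members were called lower in that interval: WTAP (adjusted p = 0.0215), RBM15 (adjusted p = 0.0259), YTHDF2 (adjusted p = 0.00185) and YTHDF3 (adjusted p = 0.0133), with 10.5% of the tested genes called lower by the same edgeR fit. Of the 10 members, 9 had a negative difference, the smallest being that of FTO (-0.0081 log2), and METTL3 had a positive one (0.066 log2).

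From 1 to 2 h, 5 members were called lower, with 12.5% of the tested genes called lower and 3.76% higher. They were YTHDF2 (-0.91 log2), YTHDF1 (-0.89), RBM15 (-0.74), WTAP (-0.56) and YTHDF3 (-0.36), with adjusted p-values from 3.18e-06 to 0.0017 (edgeR). The call of YTHDF3 was lost without replicate 1 (adjusted p = 0.0506, edgeR). The block added METTL14 (adjusted p = 0.00165), YTHDC1 (adjusted p = 0.00261) and ALKBH5 (adjusted p = 0.027), which made 8 members, beside 20.7% of the tested genes called lower.

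From 2 to 4 h, 7 members were called lower, with 18.3% of the tested genes called lower. YTHDF2 fell by a further 1.40 log2, YTHDF1 by 1.00, METTL14 by 0.71, YTHDC1 by 0.66, YTHDF3 by 0.63, WTAP by 0.61 and ALKBH5 by 0.30 (adjusted p from 1.77e-07 to 0.00785, edgeR). The call of ALKBH5 was lost without replicate 1 (adjusted p = 0.0894, edgeR). FTO, at -0.18 log2, was not called with TMM factors and no block (adjusted p = 0.0767, edgeR) but was with the block (adjusted p = 0.00972) or with GAPDH and ACTB scaling (adjusted p = 0.00438, edgeR). The block called 25.3% of the tested genes lower. RBM15, which had fallen between 1 and 2 h, differed by 0.12 ± 0.14 (SE) log2 between 2 and 4 h (adjusted p = 0.564, edgeR).

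Over the whole course, 4 h against 0 h with time as groups, the same 9 members were called lower as by the slope, with 31.6% of the tested genes called lower and 28.7% higher. The differences ran from -2.51 log2 for YTHDF2 and -2.01 for YTHDF1 to -0.54 for ALKBH5 and -0.33 for FTO, and METTL3 was at 0.02 (adjusted p = 0.842, edgeR). A straight line was a poor summary for 3 members, beside 2.7% of the tested genes: YTHDF2 (adjusted p = 0.00667), YTHDF1 (adjusted p = 0.0139) and RBM15 (adjusted p = 0.0498, edgeR's test of the 2 added terms). None of the 3 calls remained without replicate 1 or without replicate 2, and RBM15 was also lost without replicate 3. With the block, METTL14, WTAP and YTHDC1 joined them, which made 6 members beside 17.2% of the tested genes. YTHDF2 was at 87.1 ± 1.83% of its 0 h level after 1 h and at 46.4 ± 2.34% after 2 h. YTHDF1 was at 92.0 ± 5.87% and 49.6 ± 0.749% at these times. For both, the loss in the second hour was larger than that in the first, an interval of the same length.

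The ratio of 2 members within a library does not depend on how that library is scaled. The slope of the log2 ratio over time was therefore tested for all 45 pairs by an exact two-sided permutation test of the time labels over the 12 libraries (369600 arrangements, smallest possible p 2.71e-06). After adjustment over the 45 pairs, 34 were past the threshold of 0.05 and 11 were not. METTL3 separated from all 9 others, with adjusted p of at most 0.00552 (exact permutation test). Against FTO, the closest of them, this call was lost without replicate 1 (adjusted p = 0.0625) or without replicate 3 (adjusted p = 0.0505), and against ALKBH5 without replicate 1 (adjusted p = 0.0813, exact permutation tests). With 0, 1 and 2 h only, METTL3 no longer separated from METTL14 (adjusted p = 0.105), YTHDC1 (adjusted p = 0.105), ALKBH5 (adjusted p = 0.252) or FTO (adjusted p = 0.25, exact permutation tests).

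The writer subunits moved apart. METTL3 had 2.62 ± 0.397 counts per METTL14 count at 0 h (2.18 to 2.95) and 5.55 ± 0.582 at 4 h (4.88 to 5.95), with no overlap. The ratio grew by 0.28 log2 per hour (95% confidence interval 0.19 to 0.37, exact permutation test, adjusted p = 0.000349), and by 0.17 with 0, 1 and 2 h only, where the call was lost as given above. Counts of METTL3 per WTAP count went from 0.973 to 2.52 on average, a slope of 0.35 log2 per hour (exact permutation test, adjusted p = 7.83e-05). METTL14 and WTAP did not separate past the threshold (slope of their ratio 0.07, interval -0.0067 to 0.15, exact permutation test, adjusted p = 0.0838). They did with 0, 1 and 2 h only (0.19, adjusted p = 0.0146) and without replicate 1 (0.09, adjusted p = 0.0335, exact permutation tests).

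**Figure D3:**
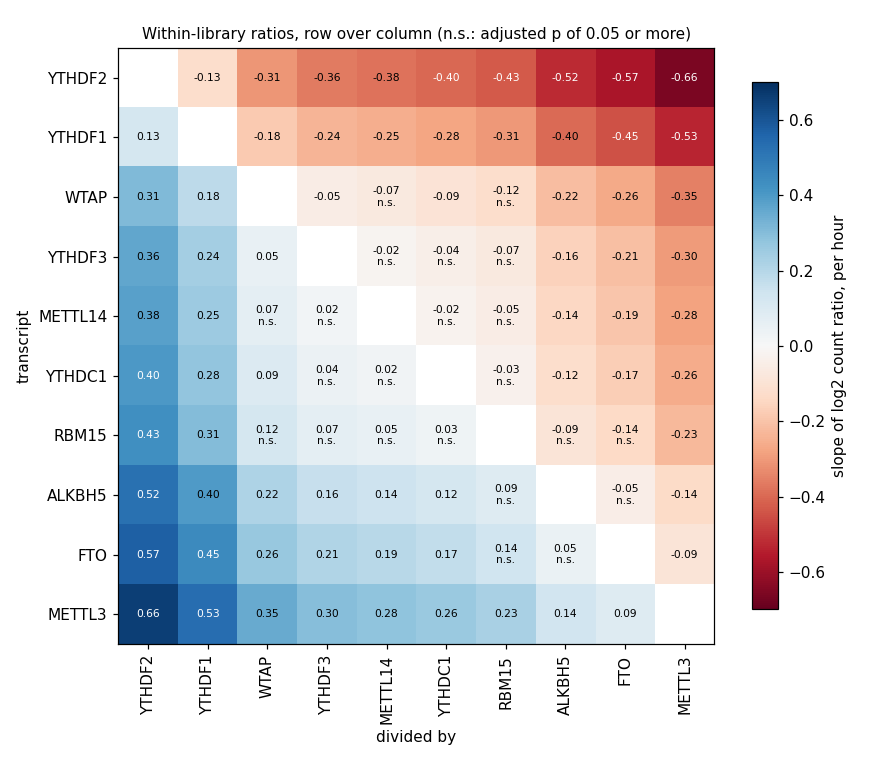
Slope of the within-library log2 ratio of each pair of members (row gene over column gene) in log2 per hour, as a colored grid with the value in each cell; n.s. marks the 11 of 45 pairs not past the threshold after adjustment. The row of METTL3 is positive against all 9 others, from 0.09 for FTO to 0.66 for YTHDF2.

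Within the YTHDF paralogs all 3 pairs separated over the whole course. YTHDF2 was lost faster than YTHDF1, by 0.13 log2 per hour (interval 0.073 to 0.18, exact permutation test, adjusted p = 0.00106). With 0, 1 and 2 h only this ratio had a slope of 0.05 and the call was lost (exact permutation test, adjusted p = 0.312). YTHDF1 was lost faster than YTHDF3, with a slope of the YTHDF1 to YTHDF3 ratio of -0.24 (exact permutation test, adjusted p = 0.000115), and the YTHDF2 to YTHDF3 ratio had a slope of -0.36 (exact permutation test, adjusted p = 6.09e-05). Of the summed YTHDF level per length, YTHDF2 made up 49.0 ± 1.96% at 0 h and 32.5 ± 1.67% at 4 h, and YTHDF3 25.7 ± 0.721% and 43.7 ± 1.12% (mean ± SD, n = 3). The YTHDF1 share was 25.3 ± 1.28% at 0 h and 23.8 ± 0.619% at 4 h. YTHDF2 was thus the most abundant of the 3 per length before the drug, and YTHDF3 after 4 h. In CPM not divided by length, YTHDF2 (129 to 142) and YTHDF3 (128 to 136) overlapped at 0 h. At 4 h YTHDF3 (57.4 to 60.3) was above YTHDF2 (21.1 to 25.7) on that scale too. The sum of the 3 YTHDF transcripts in CPM went from 346 ± 9.21 at 0 h through 309 ± 13.5 and 194 ± 12.1 to 102.5 ± 4.41 at 4 h.

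**Figure D4:**
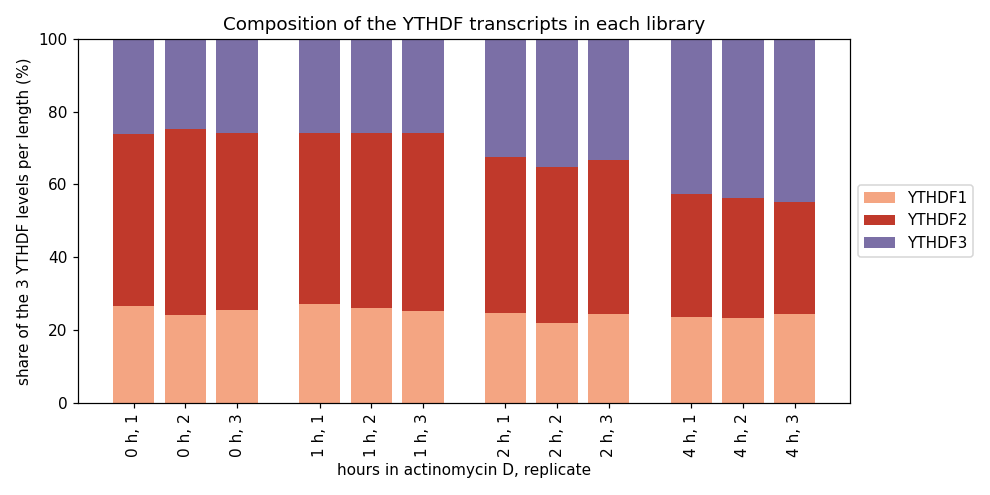
Share of YTHDF1, YTHDF2 and YTHDF3 in their summed level per kilobase of canonical transcript, in percent. Each stacked bar is a library, ordered by hours of actinomycin D and then by replicate number. From 0 to 4 h the mean YTHDF2 share drops from 49.0% to 32.5% and the mean YTHDF3 share grows from 25.7% to 43.7%.

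In the order of the 10 slopes, neighbors separated at both ends but not in the middle. YTHDF2 differed from YTHDF1, YTHDF1 from WTAP (exact permutation test, adjusted p = 0.000555), and WTAP from YTHDF3 (exact permutation test, adjusted p = 0.0387), though this last call was lost without replicate 2 (adjusted p = 0.21) or replicate 3 (adjusted p = 0.204). Between YTHDF3 and METTL14, METTL14 and YTHDC1, YTHDC1 and RBM15, and RBM15 and ALKBH5 the difference was not past the threshold. For the first of these pairs the ratio of METTL14 to YTHDF3 had a slope of 0.02 log2 per hour (interval -0.045 to 0.078, exact permutation test, adjusted p = 0.587). The interval for RBM15 against YTHDC1, from -0.14 to 0.20, was much wider. With 0, 1 and 2 h only, the RBM15 ratio passed the threshold against both of its neighbors. Its slopes were -0.33 against YTHDC1 (adjusted p = 0.0343) and -0.37 against ALKBH5 (adjusted p = 0.0303, exact permutation tests). In that shorter course RBM15 did not separate from YTHDF1 (adjusted p = 0.794) or YTHDF2 (adjusted p = 0.501, exact permutation tests). YTHDF1 no longer separated from WTAP there (adjusted p = 0.11, exact permutation test). The 2 erasers, the last pair before METTL3, had a ratio slope of -0.048 (interval -0.099 to 0.0024, exact permutation test, adjusted p = 0.0743), which passed the threshold when labels were permuted within replicate numbers as blocks (adjusted p = 0.0288) or without replicate 3 (adjusted p = 0.00786).

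The transcripts with the course most like that of YTHDF2 over the 12 libraries were FBXO42, TGIF2 and TSC22D1, with root mean square differences of centered log2 CPM of 0.0894, 0.104 and 0.107. Those most like METTL3 were SLC35C2 (0.0618), ANKRD13D (0.0624) and DDX5 (0.0664).

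Other genes of the m6A pathway moved in both directions on the TMM scale. Of 29 further genes, all tested, 12 fell, 7 rose and 10 were not past the threshold, beside 32.1% of all tested genes falling and 30.7% rising, and their median slope was -0.033 log2 per hour. Under scaling to GAPDH and ACTB 26 of the 29 fell and 0 rose (edgeR), and no test compared them with the 10 members. The remaining subunits of the writer complex all fell: CBLL1, its E3 ligase-like subunit (-0.37, adjusted p = 3.61e-07, edgeR), RBM15B, the paralog of RBM15 (-0.20), the scaffold VIRMA, listed as KIAA1429 (-0.19), and ZC3H13 (-0.17). With METTL14, WTAP and RBM15 this made 7 of 8 tested transcripts of the complex, beside 32.1% of all tested genes, the exception being METTL3, which fell as well when scaled to GAPDH and ACTB. Of 5 genes of other RNA methyltransferases, with the cofactor TRMT112 counted among them, 3 fell. The 1 that rose was TRMT112 (0.09, adjusted p = 1.86e-05, edgeR). METTL16, which methylates U6 RNA and the MAT2A transcript, had a slope of -0.24 (adjusted p = 4.97e-09, edgeR).

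Of 11 other reader genes, 3 fell, 4 rose and 4 did neither. YTHDC2, a helicase with a YTH domain, rose with a slope of 0.09 (adjusted p = 0.000396, edgeR), though it was at -0.044 under scaling to GAPDH and ACTB. Of 6 partners of the readers in decay, splicing and export, 1 fell and UPF1, the helicase of nonsense-mediated decay, rose (0.09, adjusted p = 0.000523, edgeR). UPF1 was not called with 0, 1 and 2 h only (adjusted p = 0.195, edgeR). It was called falling under scaling to GAPDH and ACTB (-0.046, adjusted p = 0.048, edgeR). Of the genes that supply the methyl donor, MAT2A, which makes S-adenosylmethionine, fell (-0.22, adjusted p = 0.00067, edgeR) and AHCY, which clears the by-product of methylation, rose (0.15, adjusted p = 1.25e-08, edgeR), though it was at 0.014 and not called under that scaling (adjusted p = 0.572, edgeR).

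The members' transcripts differ in length and in sequence elements known from mRNA decay. In the canonical transcripts of GENCODE version 44, which is on a later genome build than the one named in the processing notes, the 3′ UTR is shortest in METTL3 (120 bases, with 96.0% of 11382 tested mRNA longer) and longest in FTO (10026 bases), beside a median of 1406 bases. YTHDF2 has 823 bases, YTHDF1 1279, YTHDF3 3080 and METTL14 5128. The pentamer ATTTA, the core of AU-rich elements, was searched on the sense strand of the 3′ UTR, where 74.8% of the tested mRNA hold it. YTHDF2, the member that fell fastest, holds none in its 823 bases and RBM15 none in 410. YTHDF1 holds 5, METTL14 19, YTHDF3 14 and YTHDC1 and FTO 10 each. METTL3, WTAP and ALKBH5 hold 1 each, shown here to set the single site of the flat transcript beside those of a falling and a slowly falling one, with ATTTA in capitals and 10 bases on either side, 5′ to 3′.
METTL3: tttcttctttATTTAaataaacatt
WTAP: atacagtgtcATTTAatttgggaga
ALKBH5: ggctgggtttATTTAaaagcaacaa

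These sites start at bases 90, 31 and 328 of the 3′ UTR. The longer form TATTTAT, which contains ATTTA, occurs in 37.4% of the tested mRNA and once each in METTL14, YTHDF3, YTHDC1 and FTO. It is printed for METTL14, YTHDC1 and FTO, whose slopes of -0.28, -0.25 and -0.09 differ, with TATTTAT in capitals.
METTL14: caactgttgtTATTTATttccagtgag
YTHDC1: tttggttaagTATTTATacacctgata
FTO: aagggtgtccTATTTATaagtcagtaa

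The 5 ATTTA sites of YTHDF1 are given beside YTHDF2, which has none. Both had lower slopes over the whole course than the other 8 members.
YTHDF1, base 153 of the 3′ UTR: atggatctgcATTTAtttgtacttt
YTHDF1, base 395: tcattttgtcATTTAgagtattctg
YTHDF1, base 505: taaagtgctaATTTAcccatttgat
YTHDF1, base 1167: ttagacttgtATTTAgagcgtgtca
YTHDF1, base 1270: aaacaatactATTTAgcaaa

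Among the 10 members, the 2 without ATTTA had slopes of -0.65 and -0.23, and the one with most had -0.28. Per kilobase of 3′ UTR, ATTTA ran from 0 in YTHDF2 and RBM15 to 8.33 in METTL3, whose 3′ UTR is the shortest. A link between these sites and the slopes was not tested. The Pumilio motif TGTANATA was found in the 3′ UTR of METTL14, YTHDF3 and YTHDC1, as in 31.4% of the tested mRNA. GGACT, a common form of the m6A consensus, was found in all 10 transcripts, from 1 in YTHDF1 to 8 in METTL14, and in 91.9% of the tested mRNA. A match is a description of the sequence and was not measured as a methylated or bound site.

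All slopes and half-lives shift with the scaling, nearly alike for all members. Scaling to GAPDH and ACTB, which were at 150.4 ± 3.48% and 141 ± 7.54% of their 0 h levels on the TMM scale, moved the median slope of all tested genes by -0.138, and of the called genes 1.43% then had a positive slope, against 48.9% with TMM. All 10 members fell under it, and half-lives became 7.23 h for METTL3, 4.43 h for FTO, 3.66 h for ALKBH5, 1.49 h for YTHDF1 and 1.26 h for YTHDF2. With library totals as the scale the median moved by -0.0392, 32.3% of the called genes rose, and METTL3 was at -0.039 log2 per hour (adjusted p = 0.178, edgeR). The order of the 10 slopes was the same under TMM factors, DESeq2 size factors, library totals and this scaling.

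**Figure D5:**
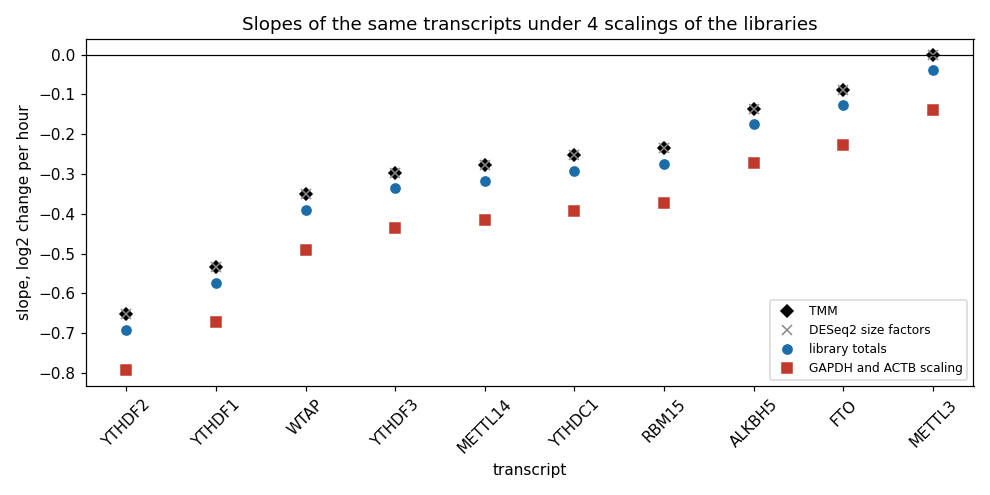
Slope of each member in log2 per hour under 4 scalings: TMM factors, DESeq2 size factors, library totals, and GAPDH and ACTB. Points are slopes and the horizontal line is 0; the whole set moves down together, and METTL3 goes from -0.00013 with TMM to -0.14 with GAPDH and ACTB.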

How the data were processed

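RNA-Seq was performed on 12 libraries of A673 cells. As deposited, the authors' table holds raw read counts by gene symbol, and the submitters' processing notes name FastQC, STAR and hg19. The counter, its annotation and its use of strand are not given in the sources used here. Each column was matched to its sample by title (0 unmatched).

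Counts were analyzed with edgeR 4.0.16 in R 4.3.3. Genes whose mean over all libraries reached 10 counts were kept (12032 genes), and TMM factors (0.924 to 1.05) were applied. The quasi-likelihood test was run with time in hours or with time as 4 groups, with Benjamini-Hochberg adjustment over all tested genes. The scripts were tested on simulated data. The common biological coefficient of variation was 0.0905. CPM and CPM per kilobase were computed from the counts. Ratios used a pseudocount of 0.5 and exact permutation (numpy 2.4.6, scipy 1.17.1). Lengths and motifs came from GENCODE version 44 (GRCh38), so no gene coordinates are given, and no 50-base window was shared between canonical transcripts of the members.

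Replicate numbers come from the labels. Libraries with the same number deviated together from their time means (correlation 0.29 to 0.603 over 18 pairs, against -0.396 to 0.0807 over 36 pairs with different numbers), so the numbers were taken to pair the samples, and a fit with the number as a block was run beside each test.

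The members and gene lists were chosen with earlier results of these data known. All 10 members are named, and of the other m6A genes those with the 3 lowest and 3 highest slopes past the threshold, besides counts by group and the remaining writer subunits. MYC and JUN check the time labels, GAPDH and ACTB the scaling, and 3 genes each are given for the course most like YTHDF2 and METTL3. RBM15B, VIRMA, ZC3H13 and TRMT112 lie outside this rule and were named after their values were seen. Alternatives were other scalings, count filters of 0 and 100, DESeq2 1.42.0, limma 3.58.1 (pseudocount 1 CPM), a ratio pseudocount of 5, fewer time points, the replicate block and leaving out each replicate.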

Additional observations from a re-analysis of the deposited data

How the results depend on the processing

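The slopes of the 10 members kept their side of the threshold in 128 of 130 alternatives, and their direction wherever called. The exceptions were METTL3, called with GAPDH and ACTB scaling, and FTO, not called with 0, 1 and 2 h only. Of 250 alternatives for contrasts between times, 235 gave the same call, 12 gained one, 2 lost one and 1 changed direction, METTL3 at 4 h against 0 h with GAPDH and ACTB scaling (-0.53 log2, adjusted p = 0.00212, edgeR). The causes of the changes below were not tested.

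With GAPDH and ACTB scaling, by construction, calls moved toward falling. From 0 to 1 h 1 member (YTHDF2) and 537 of all genes fell and 3 rose, instead of 269 and 42. From 1 to 2 h 1 gene rose instead of 452, and from 2 to 4 h 4857 fell and 9 rose, instead of 2199 and 1449. From 0 to 4 h 7612 fell and 111 rose, instead of 3797 and 3448, and by slope 7729 fell and 112 rose, instead of 3859 and 3694. Of the other m6A genes 26 fell and 0 rose by slope (edgeR). ACTB, UPF1 and YTHDC2 then had slopes of -0.017, -0.046 and -0.044 instead of 0.12, 0.09 and 0.09. Of these, only that of UPF1 was called (adjusted p = 0.048, edgeR). With library totals 2120 genes rose from 0 to 4 h and 2242 by slope, and YTHDF3 was at 26.6 CPM per kilobase at 0 h.

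The replicate block called 4 members lower from 0 to 1 h, 8 from 1 to 2 h and 6 as departing from a line. Over all genes it called 1261 lower and 744 higher from 0 to 1 h, 2485 and 2048 from 1 to 2 h, 3050 higher from 2 to 4 h and 2073 as departing from a line, instead of 325. Beyond the members named in the report with the pairing, it changed no other call of a member. Of the 45 ratios, 35 passed with the block, 34 with a pseudocount of 5 and 28 with 0, 1 and 2 h only. In that shorter course 3 ratio slopes, each with RBM15, passed the threshold with the sign opposite to the whole course. They were METTL14 to RBM15 (0.31), RBM15 to YTHDF3 (-0.23) and RBM15 to YTHDC1 (-0.33). The shorter course also left 7 falling and 4 rising among the other m6A genes, and 2215 and 1447 among all genes.

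Leaving out each replicate gave 1 to 157 genes lower and 0 to 11 higher from 0 to 1 h, 614 to 1315 lower and 25 to 154 higher from 1 to 2 h, 1334 to 1956 lower and 501 to 851 higher from 2 to 4 h, and 0 to 175 departing from a line (0 to 2 members). With the longest transcript, METTL3, WTAP and RBM15 were at 32.1, 22.9 and 8.65 CPM per kilobase. With 3 libraries per time point, the standard errors of the members' slopes were 0.017 to 0.048 log2 per hour, and the widest was that of RBM15, which with METTL14 had the fewest counts.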
